A study of Mus musculus with 5 samples.

Results

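The genes described here are 7 structural and regulatory genes of the podocyte, the cell that covers the outer face of the glomerular capillary: *Nphs1*, *Podxl*, *Wt1*, *Synpo*, *Ptpro*, *Magi2* and *Cd2ap*. They were chosen by gene symbol, with earlier results of these data known, from the 24421 gene symbols counted by RNAseq in kidney cortical tissue. All 7 symbols were found and all 7 passed the filter on low counts, as did 13874 genes in total. The choice means that the fold changes and adjusted p-values of these genes describe these mice and are not independent evidence about podocyte genes. RNAseq was performed on 3 *Fnip1* null mice (*Fnip1*-/-, numbered 8637, 9210 and 9121) and 2 wildtype mice (*Fnip1*+/+, 9055 and 9056), with 1 library per mouse. The study lists more wildtype mice for this experiment than the 2 analysed here. For mouse 9210 the label and the name of the deposited data give different mouse numbers, and the label was used. All mice were on the C57BL6J strain background and between 11 and 18 weeks of age, and none had a treatment in the labels. The *Fnip1* null allele came from chemical (ENU) mutagenesis and is constitutive, so *Fnip1*, which encodes an adapter protein that binds Folliculin and AMP kinase, was lost in every cell type and not only in podocytes. The labels give the controls as *Fnip1*+/+, whereas the study also describes control mice as *Fnip1*+/-, and they are called wildtype here.

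Podocytes wrap the glomerular capillaries with interlocking foot processes. Neighbouring foot processes are joined by the slit diaphragm, a cell junction built on nephrin that acts together with the basement membrane as the protein barrier of the kidney. An actin skeleton inside the foot process, a negatively charged coat on its apical face and a set of transcription factors in its nucleus maintain this shape, and inherited loss of many of these genes causes proteinuria. Podocytes are a small part of the cortex, in which proximal tubule cells are the most numerous.

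The libraries held between 15799114 and 19132145 counts on genes, and 39.0% to 42.8% of the counted records fell outside genes, aligned to more than 1 place or could not be assigned to 1 gene. Expression is given as normalized CPM, read counts scaled to a common library size with TMM factors. *Fnip1* itself was measured at 21.0, 16.9 and 16 CPM in null mice 8637, 9210 and 9121 and at 51.8 and 48.7 CPM in the wildtype mice, a log2 fold change of -1.48 (SE 0.14, adjusted p = 0.033, edgeR quasi-likelihood test). Mouse 9121 stood apart from the others, with 5954 counts of *Xist* where the other mice had between 3 and 24. It had 0 counts of the Y-linked gene *Ddx3y* where the others had between 720 and 885. The labels do not give sex, but these counts mark mouse 9121 as female and the others as male. The null group thus held both sexes and the wildtype group only males. Results are therefore also given without mouse 9121. A two-sided exact permutation test on 1 gene bottoms out at p = 0.1 in a design of this size. Genotypes were therefore compared with the quasi-likelihood test of edgeR, fitted to all 13874 genes. Unless another tool is named, each adjusted p below is from that fit, with Benjamini-Hochberg adjustment. Because the tissue is a mixture of cells, a change in the number of podocytes and a change in the RNA made by each podocyte cannot be told apart.

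Promoter sequence was on hand for 4 of the 7 genes and is shown as a description. A relation between these sequences and the fold changes was not tested. Among these genes, *Nphs1* and *Ptpro* rose in null mice, *Magi2* was higher without passing the quasi-likelihood test, and *Cd2ap* showed the smallest difference. The sequences are the 250 bases before the RefSeq transcript start on GRCm38.p6, written 5′ to 3′ on the strand of the gene. They lie at chr7:30459808-30460057 (+) for *Nphs1*, chr6:137252049-137252298 (+) for *Ptpro*, chr5:19226796-19227045 (+) for the first of the *Magi2* starts and chr17:42876425-42876674 (-) for *Cd2ap*. The GENCODE M21 annotation places some starts further upstream. By it the *Nphs1* window lies inside the gene, which starts at 30458315. Most of the *Cd2ap* window also lies inside its gene, which reaches 42876665, as does the end of the first *Magi2* window, whose gene starts at 19227036. Capitals mark a match to GCGNGGGNG, read on both strands, the letters of the site type shared by WT1 and the EGR zinc finger factors.
Nphs1: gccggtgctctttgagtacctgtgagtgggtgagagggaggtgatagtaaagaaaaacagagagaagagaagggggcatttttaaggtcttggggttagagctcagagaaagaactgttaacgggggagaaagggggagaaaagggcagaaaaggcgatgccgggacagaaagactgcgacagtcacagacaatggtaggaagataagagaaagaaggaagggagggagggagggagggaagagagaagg
Ptpro: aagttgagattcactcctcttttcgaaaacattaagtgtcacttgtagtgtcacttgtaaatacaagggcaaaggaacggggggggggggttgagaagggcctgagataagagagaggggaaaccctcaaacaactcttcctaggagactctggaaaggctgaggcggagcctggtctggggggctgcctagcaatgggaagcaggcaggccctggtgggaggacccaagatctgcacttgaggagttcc
Magi2: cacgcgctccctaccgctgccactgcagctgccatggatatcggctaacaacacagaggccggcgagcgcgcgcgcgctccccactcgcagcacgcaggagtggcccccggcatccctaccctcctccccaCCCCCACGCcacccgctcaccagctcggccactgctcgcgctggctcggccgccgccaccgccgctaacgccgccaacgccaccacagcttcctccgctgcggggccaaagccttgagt
Cd2ap: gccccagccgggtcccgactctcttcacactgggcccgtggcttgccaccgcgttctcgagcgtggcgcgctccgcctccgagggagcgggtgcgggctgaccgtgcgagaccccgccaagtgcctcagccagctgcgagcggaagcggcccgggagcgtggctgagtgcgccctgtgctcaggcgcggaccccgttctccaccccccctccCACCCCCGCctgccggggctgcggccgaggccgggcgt

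The windows differed in base composition, and the first *Magi2* window and that of *Cd2ap* were CpG rich. The *Nphs1* window was 50.8% G or C with 5 CpG dinucleotides, and the *Ptpro* window was 53.6% with 3, against medians of 52.4% and 6 over 32851 windows of the same length. The first *Magi2* window was 72.0% G or C with 29 CpG dinucleotides, and the *Cd2ap* window was 76.4% with 31, so that 93.1% and 97.0% of all windows had a lower G and C content. The letters GCGNGGGNG occurred once in each of these CpG-rich windows, in neither of the others, and in 10.5% of all windows. *Magi2* has a second start at chr5:19907268-19907517 (+), whose window was 41.2% G or C and held no such match but 1 match to TAATTA, the core letters of an LMX1B type homeodomain site, which 4.84% of all windows held. A match is a description of the letters and not a sign of binding.

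The slit diaphragm members differed most among themselves. *Nphs1* (chr7:30458315-30487223, plus strand, ENSMUSG00000006649) encodes nephrin, the adhesion protein that spans the slit. Its level was 57.4, 68.8 and 62.7 CPM in null mice 8637, 9210 and 9121, and 28.3 and 31.4 CPM in wildtype mice 9055 and 9056. Every null mouse was above both wildtype mice, with a gap of 26 CPM between the nearest mice of the genotypes. The means were 63.0 ± 5.70 CPM (SD, n = 3) and 29.8 ± 2.22 CPM (SD, n = 2), and the log2 fold change was 1.08 (SE 0.12, adjusted p = 0.0354, edgeR). *Nphs1* was the only one of the 7 genes to pass an FDR of 5% with a change of 2-fold or more. GENCODE M21 places an antisense RNA, *Nphs1os*, over 597 of its exon bases. *Nphs1os* had 0 or 1 count in every mouse, and the strand setting of the counting is not given in the sources used here.

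*Magi2* (chr5:19227036-20704792, plus strand, ENSMUSG00000040003) encodes a scaffold protein with PDZ domains that binds nephrin from inside the cell. It was measured at 23.8, 21.8 and 20.6 CPM in null mice 8637, 9210 and 9121, and at 15.04 and 13.84 CPM in the wildtype mice. All null mice were again above both wildtype mice, but here 8637 was the highest, while 9210 was the highest in each of the other 6 genes. The log2 fold change was 0.61 (SE 0.12) and did not pass the test in edgeR (adjusted p = 0.0738). *Cd2ap* (chr17:42792951-42876665, minus strand, ENSMUSG00000061665) encodes an adapter that links the slit diaphragm to actin and is made in many other cell types as well. It was measured at 137, 141 and 134 CPM in the null mice, in the same order, and at 132 and 120 CPM in the wildtype mice. The genotypes came within 1.70 CPM of each other, a smaller gap than that between the wildtype mice, which differed by 9.97%. The log2 fold change was 0.12 (SE 0.09, adjusted p = 0.408, edgeR).

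The apical members moved by similar amounts. *Podxl* (chr6:31519488-31563981, minus strand, ENSMUSG00000025608) encodes podocalyxin, the sialomucin that gives the foot process its negative charge, and is also made by endothelium. It was measured at 333, 408 and 358 CPM in null mice 8637, 9210 and 9121, and at 219 and 205 CPM in wildtype mice 9055 and 9056. The genotypes did not overlap and the nearest mice were 113 CPM apart. The log2 fold change of 0.79 (SE 0.12) missed the threshold (adjusted p = 0.0554, edgeR). *Ptpro* (chr6:137252319-137463233, plus strand, ENSMUSG00000030223) encodes a receptor tyrosine phosphatase of the apical foot process membrane, known as GLEPP1. It was measured at 31.7, 35.7 and 32.6 CPM in the null mice and at 19.4 and 19.9 CPM in the wildtype mice. The wildtype mice were within 2.69% of each other and all null mice were higher, with a log2 fold change of 0.76 (SE 0.11, adjusted p = 0.0482, edgeR).

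*Synpo* (chr18:60593973-60660142, minus strand, ENSMUSG00000043079) encodes synaptopodin, an actin-associated protein that stabilizes stress fibres in the foot process. Its wildtype mice were the closest to each other of the 7 genes. Its level was 84.6, 89.5 and 88.5 CPM in null mice 8637, 9210 and 9121 and 47.2 and 46.7 CPM in the wildtype mice. The means were 87.5 ± 2.58 CPM (SD, n = 3) and 46.9 ± 0.341 CPM (SD, n = 2). No null mouse came near a wildtype mouse, and the log2 fold change was 0.90 (SE 0.08, adjusted p = 0.033, edgeR), which placed *Synpo* 9th of all genes when ordered by p although its change was under 2-fold. *Wt1* (chr2:105126529-105173616, plus strand, ENSMUSG00000016458) encodes the zinc finger transcription factor on which mature podocytes depend. It was the least counted of the 7 genes, with 154 to 319 counts in a mouse, and was measured at 17.3, 19.0 and 14.8 CPM in the null mice and 9.57 and 9.95 CPM in the wildtype mice. Mouse 9121 was the lowest null mouse but still above the wildtype mice, and the log2 fold change was 0.80 (SE 0.15, adjusted p = 0.07, edgeR).

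**Figure D1:**
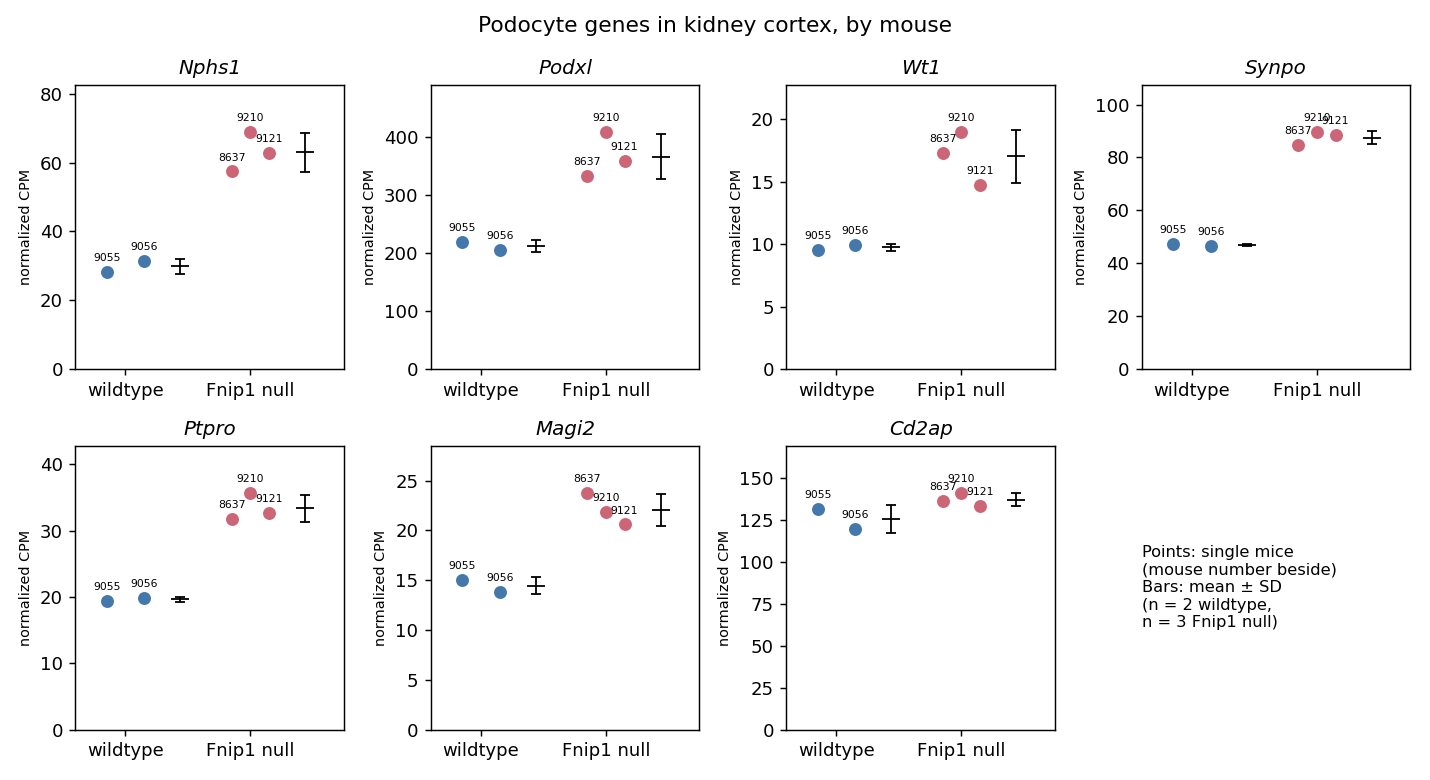
Normalized CPM of each of the 7 podocyte genes in each mouse, with 1 panel per gene, the vertical axis starting at 0, points for single mice and bars for the mean ± SD (n = 2 wildtype, n = 3 *Fnip1* null). In 6 panels the null mice sit well above the wildtype mice, while in the *Cd2ap* panel the groups are 1.70 CPM apart.

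Of the 7 podocyte genes, 3 (*Nphs1*, *Synpo* and *Ptpro*) were higher in *Fnip1* null mice at an FDR of 5%, where 0.526% of all genes tested were higher by the same rule and 0.678% passed in either direction. At an unadjusted p under 0.05, 6 of the 7 were higher, as were 14% of all genes. With the 2-fold minimum added, 1 gene was called, against a background of 0.404%. The null mice were above both wildtype mice in all 7 genes, and the same held for 22.9% of all genes tested, while the null mice were below both wildtype mice in 23% of all genes and in none of the 7. All 7 had a positive log2 fold change, as did 50.5% of all genes tested. The median log2 fold change of the 7 genes was 0.79, against 0.004 over all genes tested. Since the genes were chosen with results of this comparison known, these counts are a description. The sum of the 7 genes was 684 CPM in null mouse 8637, 784 in 9210 and 711 in 9121, against 471 CPM in wildtype mouse 9055 and 446 in 9056. *Podxl* was the highest of the 7 in every mouse and weighed most in this sum, followed by *Cd2ap*.

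The calls depended on the test and on single mice, while every log2 fold change of the 7 genes stayed positive. The tests were fitted to the same counts, so near-equal fold changes between them were built in. With the exact or likelihood ratio test of edgeR, or with DESeq2, 6 of the 7 genes were higher at an FDR of 5%, all but *Cd2ap*, where 6.18%, 6.81% and 6.14% of all genes were higher. Without null mouse 9121, 4 genes passed (*Nphs1*, *Synpo*, *Ptpro* and *Wt1*), with log2 fold changes of 1.08, 0.89, 0.78 and 0.89, in a fit in which 0.887% of all genes were higher at the FDR of 5%. Without null mouse 8637, 6 genes passed, where 10% of all genes were higher and 2839 genes passed in either direction. Without null mouse 9210, or without either wildtype mouse, 0 of the 7 genes and 0 of all genes passed the quasi-likelihood test, with 6 of the 7 higher at an unadjusted p under 0.05 each time. The share of all genes higher at that p was 9.02% without mouse 9210, 10.7% without 9055 and 5.48% without 9056. In these smaller fits the log2 fold change of *Nphs1* stayed between 0.999 and 1.152 and that of *Synpo* between 0.88 and 0.93. That of *Cd2ap* ran from 0.054 to 0.191.

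**Figure D2:**
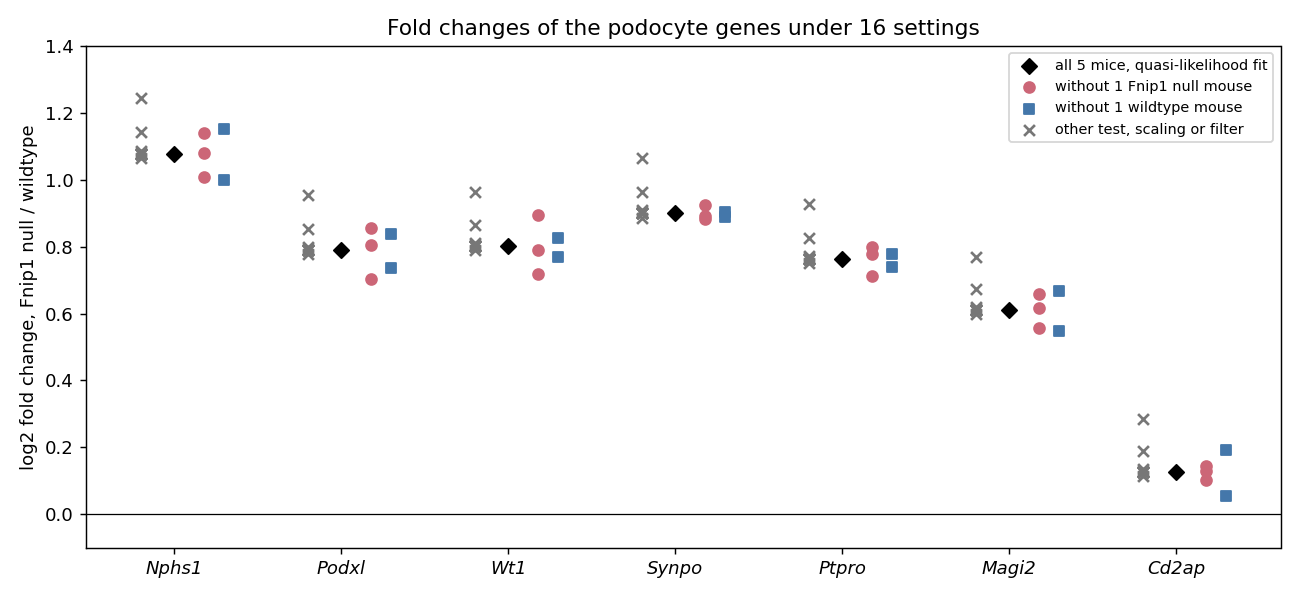
Log2 fold change (*Fnip1* null over wildtype) of each of the 7 podocyte genes with all 5 mice (diamonds), without 1 null mouse (circles), without 1 wildtype mouse (squares) and under another test, scaling or filter (crosses). Every value is above 0, and *Cd2ap* is the lowest throughout, down to 0.05.

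By mean CPM, the 7 genes had the same order in both genotypes: *Podxl*, *Cd2ap*, *Synpo*, *Nphs1*, *Ptpro*, *Magi2* and *Wt1*. Only the order per kilobase of exon differed, among *Cd2ap*, *Synpo* and *Nphs1*. Per kilobase of merged GENCODE M21 exon, *Podxl* was the highest in both genotypes, at 66.8 ± 7.003 CPM per kb (SD, n = 3) in null and 38.6 ± 1.92 CPM per kb (SD, n = 2) in wildtype mice. In wildtype mice *Cd2ap* came next at 7.94 ± 0.533 CPM per kb, followed by *Synpo* at 4.92 ± 0.0357 and *Nphs1* at 4.51 ± 0.335. In null mice *Nphs1* (9.51 ± 0.861 CPM per kb), *Synpo* (9.18 ± 0.270) and *Cd2ap* (8.65 ± 0.244) were neighbours. *Nphs1* and *Synpo* differed by less than the SD of *Nphs1*, and *Nphs1* and *Cd2ap* by about that SD. *Ptpro* (4.96 in null and 2.92 in wildtype mice), *Wt1* (2.75 and 1.58) and *Magi2* (1.94 and 1.27 CPM per kb) followed in the same order in both genotypes. Reads were assigned without isoform information, so a level per kilobase of all exons can be lower than that of the isoform the tissue uses.

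Ratios within a mouse do not depend on the scaling of the libraries. *Nphs1* over *Cd2ap* was 0.420, 0.487 and 0.470 in null mice 8637, 9210 and 9121, against 0.214 in wildtype mouse 9055 and 0.262 in 9056. *Synpo* over *Cd2ap* was 0.638 ± 0.0223 (SD, n = 3) in null and 0.374 ± 0.0224 (SD, n = 2) in wildtype mice. *Cd2ap* was thus outpaced by the other members in every null mouse. Against *Nphs1*, each of *Podxl*, *Synpo*, *Wt1*, *Ptpro* and *Magi2* was lower in null than in wildtype mice without overlap. *Nphs1* had the largest log2 fold change of the members and is the shared denominator, so lower mean ratios follow from that choice. For *Synpo* the nearest mice were at 1.474 (null mouse 8637) and 1.486 (wildtype mouse 9056). The share of all genes that separate in this way was not computed. For *Podxl* this ratio was 5.81 ± 0.114 (SD, n = 3) in null and 7.14 ± 0.883 (SD, n = 2) in wildtype mice, and the latter were 7.76 and 6.51.

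Each gene was also set against the mean log2 CPM of other podocyte genes of the same mouse, as a description with no test. Against 47 other podocyte genes, the mean of the null mice was above that of the wildtype mice by 0.72 for *Nphs1*, 0.55 for *Synpo*, 0.44 for *Wt1*, 0.43 for *Podxl*, 0.41 for *Ptpro* and 0.25 for *Magi2* on the log2 scale, and the difference for *Cd2ap* was -0.23. The mice of the genotypes did not overlap in any of the 7, and the share over all genes was not computed for such relative levels. That reference includes genes of broad expression, such as integrins and actin-binding proteins. Against 10 podocyte-enriched genes, the differences shrank to 0.38 for *Nphs1* and 0.20 for *Synpo*, still without overlap, and to 0.09 for *Wt1*, 0.09 for *Podxl* and 0.06 for *Ptpro*, with overlap. With this reference the sign of *Magi2* turned, to -0.09 with overlap, and the difference for *Cd2ap* was -0.57 without overlap. The members other than *Cd2ap* thus changed about as much as the podocyte-enriched genes did on average, with *Nphs1* and *Synpo* changing somewhat more. This describes the change between genotypes and not the level.

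**Figure D3:**
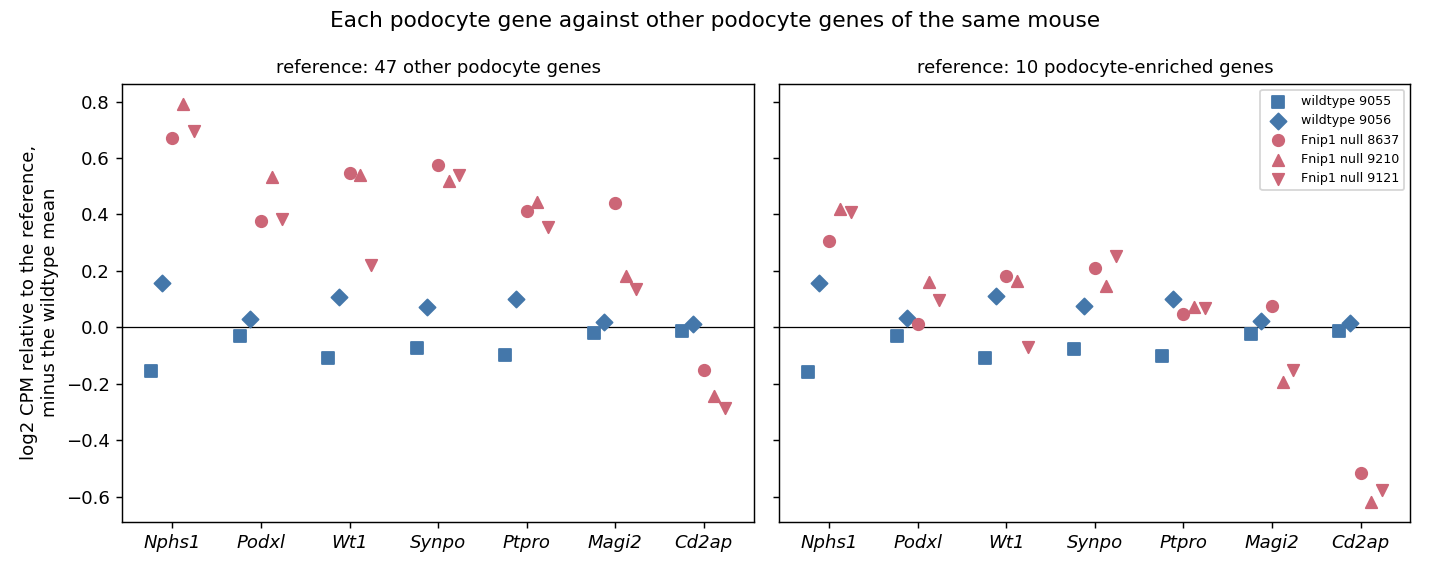
Log2 CPM of each of the 7 podocyte genes minus the mean log2 CPM of a reference list in the same mouse, with the wildtype mean set to 0, for 47 other podocyte genes (left) and 10 podocyte-enriched genes (right), with 1 symbol per mouse. On the left 6 genes are higher in null mice, and on the right *Nphs1* and *Synpo* remain apart while *Cd2ap* is lower in all 3 null mice.

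Beyond the 7 genes, 49 other podocyte genes were listed by role, of which 47 were tested and 2 (*Kirrel2* and *Trpc6*) fell under the filter on low counts. Of the 47, 39 were higher and 8 lower in null mice by sign, 2 were higher at an FDR of 5%, none was lower, and the median log2 fold change was 0.32. Over all genes tested, 50.5% had a positive sign and 0.526% were higher at that FDR. At an unadjusted p under 0.05, 18 were higher and 6 lower, where 14% of all genes were higher and 11.2% lower. The null mice were above both wildtype mice in 27 genes and below both in 7. The shares over all genes were 22.9% and 23%. DESeq2, the exact test and the likelihood ratio test each called 13 of the 47 higher and none lower. By these tests 6.14%, 6.18% and 6.81% of all genes were higher. The same shares over all genes apply to the counts of each list below. Without null mouse 9121 the quasi-likelihood test called 4 higher and 0 lower, where 0.887% of all genes were higher. Without null mouse 8637 it called 15 higher and 4 lower, where 10% of all genes were higher. Without null mouse 9210 or either wildtype mouse it called 0.

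Among 11 other slit diaphragm genes tested, 1 was higher at an FDR of 5% and the median log2 fold change was 0.36. *Plce1*, a phospholipase C whose loss causes nephrotic syndrome, was at 16.6, 17.8 and 15.05 CPM in null mice 8637, 9210 and 9121 and at 8.57 and 8.18 CPM in the wildtype mice. The genotypes did not overlap, and it had a log2 fold change of 0.98 (SE 0.14, adjusted p = 0.0495, edgeR). *Fyn*, the kinase that phosphorylates nephrin, had a value of 0.92 (adjusted p = 0.0752), and *Kirrel*, the nephrin partner Neph1, one of 0.81 (adjusted p = 0.0903). *Fat1*, a large protocadherin, and *Pard3*, a polarity protein, both also made in tubules, had log2 fold changes of -0.44 (adjusted p = 0.146) and -0.22 (adjusted p = 0.19).

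Of 4 other transcription factors, 0 passed the quasi-likelihood test and all had a positive sign, with 1 at an unadjusted p under 0.05 and 1 called by the other tools. *Foxc2* had a log2 fold change of 0.94 (adjusted p = 0.0734) and *Foxc1* one of 0.12 (adjusted p = 0.844). *Tcf21*, a factor also made by interstitial cells, was at 14.3, 20.0 and 31.6 CPM in the null mice and 15.5 and 9.38 CPM in the wildtype mice, so the genotypes overlapped and mouse 9121 was the highest.

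Of 8 other actin genes, 0 passed the quasi-likelihood test and all had a positive sign, with 2 at an unadjusted p under 0.05 and 1 called by the other tools. *Inf2*, a formin mutated in focal segmental glomerulosclerosis, had a log2 fold change of 1.15 (adjusted p = 0.0567), and *Arhgap24*, an inactivator of Rac, one of 0.004 (adjusted p = 0.985). *Actn4*, the broadly made actin crosslinker alpha-actinin-4, had one of 0.14 (adjusted p = 0.404). Of 3 other apical genes 0 passed, with 1 higher and 1 lower at an unadjusted p under 0.05 and 1 called higher by the other tools. The scaffold genes *Slc9a3r2* and *Slc9a3r1* had log2 fold changes of 0.44 (adjusted p = 0.0883) and -0.37 (adjusted p = 0.156). Among 11 basement membrane and adhesion genes 0 passed, with 1 higher and 3 lower at an unadjusted p under 0.05, 1 called higher by the other tools and a median log2 fold change of 0.07. *Lamb2*, the laminin chain of the mature glomerular basement membrane, had a log2 fold change of 0.57 (adjusted p = 0.105), whereas the collagen IV genes *Col4a3* and *Col4a4* had values of -0.36 (adjusted p = 0.138) and -0.40 (adjusted p = 0.157), with all null mice below both wildtype mice.

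All 10 podocyte-enriched genes had a positive sign, with a median log2 fold change of 0.71, and 1 passed the test. *Sema3g*, a secreted semaphorin, was at 145, 186 and 137 CPM in null mice 8637, 9210 and 9121 and at 58.2 and 51.9 CPM in the wildtype mice. It had the largest log2 fold change of the listed podocyte genes, 1.501 (SE 0.16, adjusted p = 0.0346, edgeR), and the genotypes were far apart. *Robo2*, a guidance receptor that binds nephrin through adapters, had a value of 1.23 (adjusted p = 0.0536), *Nes*, the intermediate filament nestin, one of 0.98 (adjusted p = 0.0524), and *Cdkn1c*, the cell cycle inhibitor p57, one of 0.79 (adjusted p = 0.0532). *Vegfa*, the growth factor that podocytes supply to glomerular endothelium and that tubules also make, was at 0.12 (adjusted p = 0.403), and *Clic5*, a chloride intracellular channel protein, at 0.11 (adjusted p = 0.625).

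**Figure D4:**
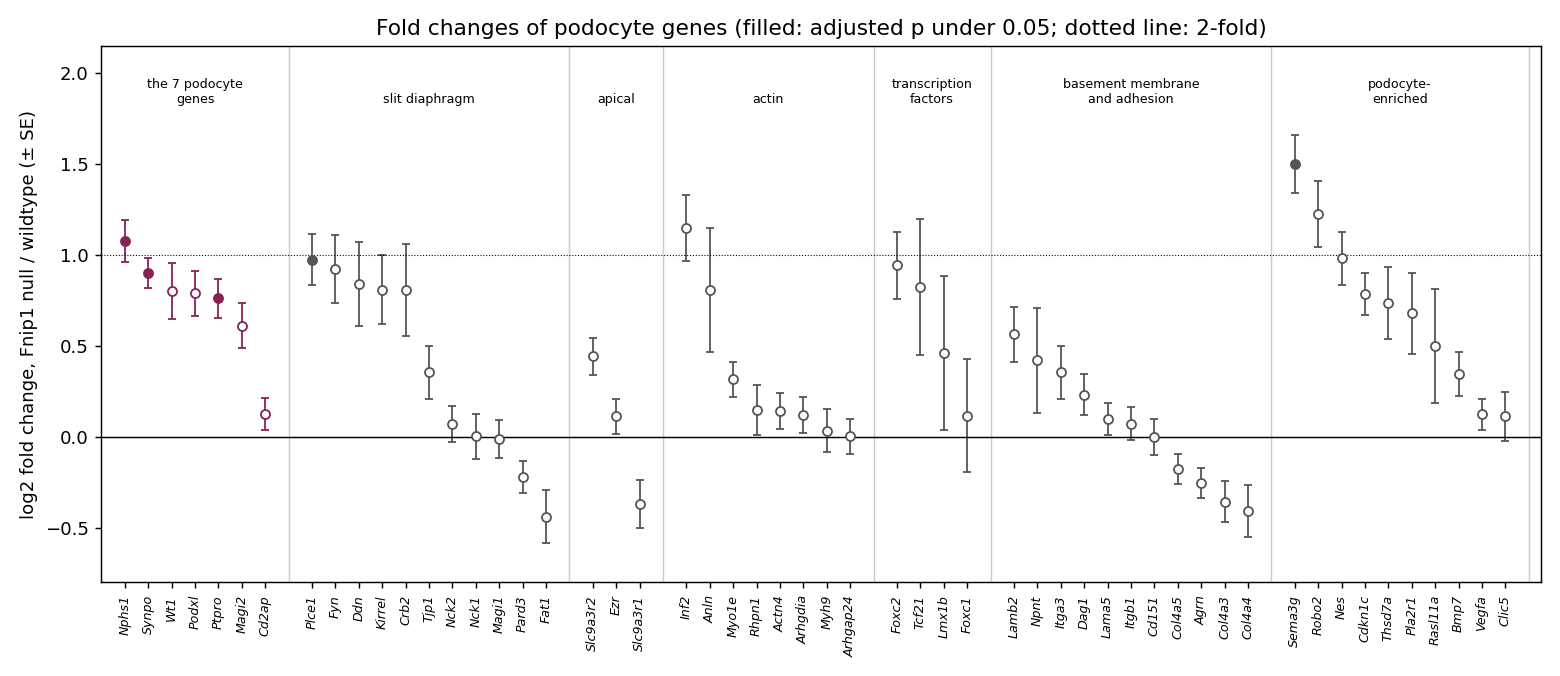
Log2 fold change (*Fnip1* null over wildtype, ± SE) of the 7 podocyte genes and of 47 other podocyte genes grouped by role, with filled points for an adjusted p under 0.05 and a dotted line at 2-fold. Filled points are *Nphs1*, *Synpo*, *Ptpro*, *Plce1* and *Sema3g*.

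Genes listed as endothelial and mesangial markers were all higher in null mice by sign, with 1 of the 13 past the test. The lists were not built to separate glomerular cells from other cells of the cortex. The part of these genes in the result was not tested. All 8 endothelial genes had a positive sign, with a median log2 fold change of 0.66, and *Plat*, the tissue plasminogen activator of glomerular endothelium, passed the test at 1.21 (SE 0.15, adjusted p = 0.0391, edgeR). Their sum was 467 to 543 CPM in null mice, against 375 CPM in wildtype mouse 9055 and 238 in 9056. All 5 mesangial genes had a positive sign with a median of 0.70. None passed the quasi-likelihood test, 3 were at an unadjusted p under 0.05 and the other tools called 2. Their sum was 135 to 183 CPM in null mice and 129 and 82.7 CPM in wildtype mice. Both sums were thus higher in wildtype mouse 9055 than in 9056. The sums of the 7 podocyte genes lay closer, at 471 and 446 CPM. The lists were not uniform, as *Kdr* was at 59.33 and 31.4 CPM in the wildtype mice and *Pdgfra* at 35.54 and 17.79 CPM. By contrast, *Plat* was at 50.45 and 44.5 CPM and *Gata3* at 13.73 and 13.27 CPM. Whether the podocyte genes changed apart from these lists was not tested. The 2 parietal epithelial genes, *Cldn1* and *Pax2*, had log2 fold changes of 0.25 and -0.09 and were not called by any of the tools.

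Markers of tubule cells and leukocytes were mixed, and their part in the result was likewise not tested. Of 7 proximal tubule genes, 2 had a positive and 5 a negative sign, with a median log2 fold change of -0.30. None passed, with 1 higher and 1 lower at an unadjusted p under 0.05, and DESeq2 called 1 in each direction where the other edgeR tests called 0. They summed to 9517 to 11730 CPM in null mice and 12460 and 13730 CPM in the wildtype mice. *Slc34a1* was the highest of the list in every mouse and weighed most in these sums. With genes weighted equally, as log2 CPM minus the mean of each gene over the 5 mice, the genotypes overlapped. The values were 0.117, -0.086 and -0.197 in null mice 8637, 9210 and 9121, against 0.046 and 0.121 in the wildtype mice. All 5 distal nephron genes had a positive sign (median 0.48) and none passed, with 3 at an unadjusted p under 0.05, 1 called by the other edgeR tests and 2 by DESeq2. They summed to 8131 to 11770 CPM in null mice and to 8526 and 7640 CPM in wildtype mice. *Umod* was the highest of these distal genes in every mouse. The proximal tubule sum was above the distal nephron sum in 4 mice, whereas in mouse 9121 the distal nephron sum (11770 CPM) was above the proximal tubule sum (9517 CPM). Of 7 leukocyte genes tested, 6 had a positive sign (median 1.43) and none passed, with 5 higher and 1 lower at an unadjusted p under 0.05 and 4 called higher by the other tools. Their sums overlapped, at 78.6, 98.3 and 171 CPM in null mice 8637, 9210 and 9121, against 107 and 88.7 CPM in the wildtype mice. *Csf1r*, the gene with the negative sign, was the highest of the list in every mouse and weighed most in these sums. It was at 38.25, 36.4 and 63.9 CPM in the null mice and at 72.4 and 68.4 CPM in the wildtype mice. The log2 fold change of *Csf1r* was -0.607 (adjusted p = 0.193, edgeR) with all mice. Without null mouse 9121 it was -0.914 and passed as lower (adjusted p = 0.0229, edgeR). *Adgre1*, the largest rise, had a log2 fold change of 1.53 (adjusted p = 0.0738, edgeR) without overlap. Mouse 9121 had the highest sum, while it was not the highest in any of the 7 podocyte genes. The B cell marker *Cd79a* had 0 counts in every null mouse and 12 and 6 in the wildtype mice.

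**Figure D5:**
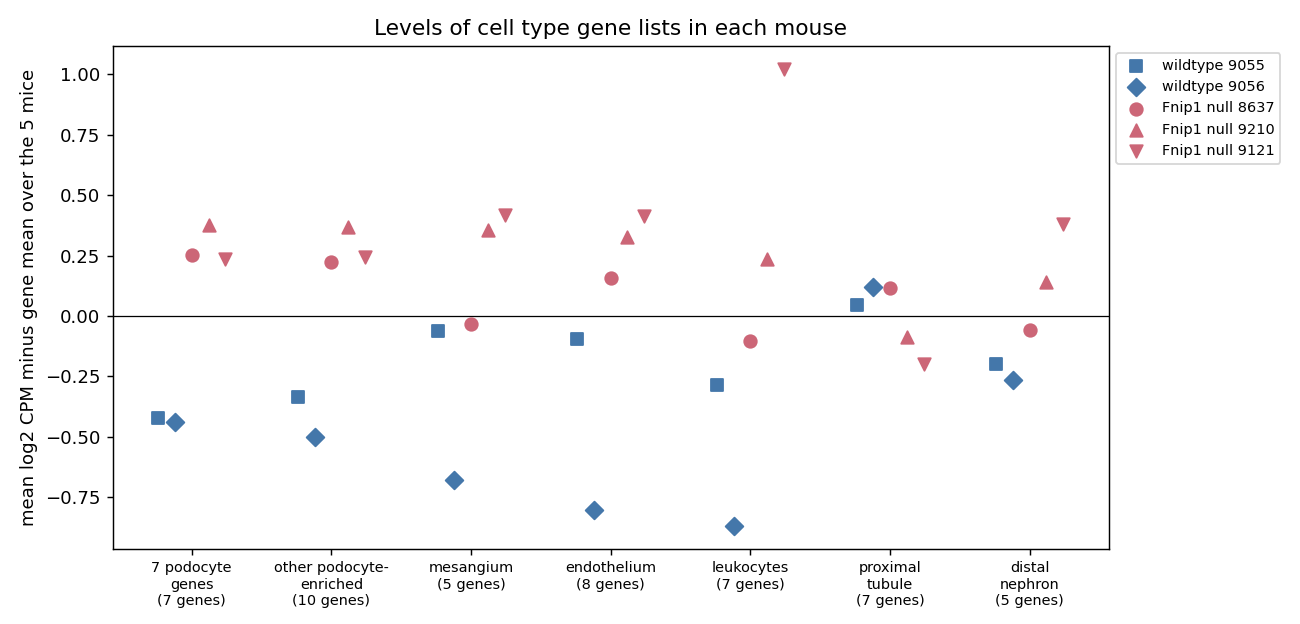
Mean over the genes of a list of log2 CPM minus the mean of each gene over the 5 mice, for 7 podocyte genes, 10 podocyte-enriched genes and markers of other cell types, with 1 symbol per mouse. The wildtype mice nearly coincide in the mean of the 7 podocyte genes, at -0.42 and -0.44. They are spread in the means of the mesangial, endothelial and leukocyte lists.

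The genes whose pattern over the 5 mice was most like the mean of the 7 were *Pde3b*, *Fgf9* and *Slc4a3*, out of 10988 genes with a mean of at least 5 CPM. Likeness was the root mean square difference of centred log2 CPM, which was 0.045 for *Pde3b*, a phosphodiesterase that degrades cyclic AMP, 0.050 for *Fgf9*, a fibroblast growth factor, and 0.052 for *Slc4a3*, an anion exchanger. Among the members themselves it was lowest for *Ptpro*, at 0.033, and highest for *Cd2ap*, at 0.294. *Pde3b* was at 26.5, 30.3 and 27.6 CPM in null mice 8637, 9210 and 9121 and at 17.2 and 15.9 CPM in the wildtype mice, with a log2 fold change of 0.76 (adjusted p = 0.0554, edgeR). None of these 3 genes was in a podocyte list or passed the test.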

How the data were processed

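RNA of frozen kidney cortical tissue was sequenced as paired 50-base reads, 1 library per mouse. The authors filtered low-quality reads, aligned them to mm10 with TopHat2 2.1.0 and counted them per gene with HTSeq 0.6.1, and these raw counts are what was deposited. The gene annotation and strand setting used for counting are not given in the sources used here. The summary records of the counter, 39.0% to 42.8% of all records per mouse, were left out.

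The analysis used R 4.3.3 with edgeR 4.0.16 and limma 3.58.1. Genes with fewer than 10 counts in more than 2 mice were removed. The study's rule for differential expression (FDR of 5% and at least 2-fold) was applied with the quasi-likelihood test, TMM scaling and Benjamini-Hochberg adjustment over 13874 genes. Standard errors are the fold change divided by the root of its F statistic. The version of edgeR defaults to the legacy quasi-likelihood method, which had been planned as an alternative, so the current method was set, after values under both had been seen. A floor of 3 counts equals about 0.16 to 0.19 CPM. The mice of a genotype are separate animals, and no pair of libraries differed by as little as sampling noise. Positions are those of GENCODE M21 (GRCm38), matched by symbol, and promoters are from RefSeq. Alternatives were DESeq2 1.42.0, the likelihood ratio and exact tests of edgeR, other scalings and filters, and leaving out each mouse. The scripts were tested on simulated data.

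The members and lists were chosen with earlier results of these data known. Genes named are the 7 members, genes past the FDR, checks of the mice, and the 3 genes nearest in pattern. The largest rise and fall are also named for each podocyte list and the parietal list, and only in part for other cell types. Others named from the lists (*Fyn*, *Kirrel*, *Pard3*, *Tcf21*, *Actn4*, *Col4a3*, *Nes*, *Robo2*, *Cdkn1c* and *Vegfa*), and the ratios between members, were chosen after their values were seen. Some podocyte genes are not reported here and were left out of the lists, counts and reference means after their values had been seen.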

Additional observations from a re-analysis of the deposited data

How the results depend on the processing

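All 105 recomputed log2 fold changes of the 7 podocyte genes were positive, and 83 kept their side of the FDR threshold, 9 lost it and 13 gained it. Against 73 genes differentially expressed in all, the exact test gave 570, the likelihood ratio test 628 and DESeq2 482. Under the same 3 tests the value of *Podxl* was 0.789, 0.789 and 0.790, that of *Wt1* 0.801, 0.801 and 0.802 and that of *Magi2* 0.611, 0.611 and 0.612, now past the FDR of 5%. Scaling by library size alone moved the median of all genes from 0.004 to 0.167 and that of the 7 genes to 0.954, and called 2 of the 7 at 2-fold, with 73 genes higher and 12 lower in place of 56 and 17, and an FDR of 5% without a fold minimum called 3. Leaving out 1 mouse gave 0 to 963 genes in all and 0 to 1 of the 7, with log2 fold changes of 0.999 to 1.152 for *Nphs1*, 0.704 to 0.855 for *Podxl*, 0.717 to 0.894 for *Wt1*, 0.883 to 0.925 for *Synpo*, 0.711 to 0.799 for *Ptpro*, 0.549 to 0.667 for *Magi2* and 0.054 to 0.191 for *Cd2ap*. Relative to podocyte-enriched genes the values were 0.377, 0.089, 0.093, 0.202, 0.062, -0.090 and -0.570 for *Nphs1*, *Podxl*, *Wt1*, *Synpo*, *Ptpro*, *Magi2* and *Cd2ap*. Other named genes turned in sign or reached 0, with *Arhgap24* at -0.009 with no filter, *Pax2* at 0.082 by library size, and, with 1 mouse left out, *Arhgap24* from -0.038 to 0.052, *Clic5* from 0.000 to 0.210, *Foxc1* from -0.177 to 0.468, *Itga8* from -0.121 to 0.869, *Pax2* from -0.347 to 0.027 and *Slc12a1* from -0.199 to 0.420. The cause of these changes was not tested. No paired analysis was possible because each mouse number occurs once. The design holds 2 wildtype mice, so the spread of that group rests on 1 difference.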
